A study of Homo sapiens with 15 samples.

Results

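Binding of GATA2, RUNX1 and SMC3 was examined around KIT and CD34, a pair of genes for surface proteins of blood progenitor cells. The members are the called ChIP-seq peaks whose summit, the point of highest signal, lay in 1 of 2 windows of the genome build hg19. The KIT window is chromosome 4 from 55350000 to 55650000 (300 kb) and the CD34 window chromosome 1 from 208030000 to 208150000 (120 kb). They held 75 of the 198298 peaks of the series, 30 in the KIT window and 45 in the CD34 window. The cells were TF-1, a human erythroleukemia line, transduced with an inducible vector for RAD21 Q592*, a RAD21 form with a premature stop codon, or for wild-type (WT) RAD21. Both lines received doxycycline for 6 days, and the labels describe no change to the cells' own RAD21 genes and do not say whether a line is 1 clone. Each line has 2 ChIP libraries per target, except for RUNX1 in Q592*, which has 1. Each line and target is represented by 1 pooled peak list, 6 in all, so no value has a replicate spread and no difference between the lines was tested.

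KIT is the receptor tyrosine kinase for stem cell factor. It is carried by blood stem and progenitor cells, mast cells and early erythroid precursors, and is switched off as red cells mature. In mouse erythroid cells GATA2 binds far-upstream elements of Kit, and its replacement by GATA1 accompanies that silencing. CD34 is a sialomucin used to mark and sort human stem and progenitor cells, and RUNX1 is known to act on the gene through a distal element. SMC3 is a core subunit of cohesin, the ring that RAD21 closes and that holds chromatin loops.

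RefSeq, assembly GRCh38.p14, lists KIT on the plus strand between PDGFRA and KDR and CD34 on the minus strand between CD46 and PLXNA2. The 250 bases before each gene's start are shown because these genes define the windows. Capitals mark CG dinucleotides. These coordinates are of another build than the peaks, so no peak is placed on a promoter, exon or intron here.
KIT promoter, GRCh38.p14 chr4:54657707-54657956, plus strand: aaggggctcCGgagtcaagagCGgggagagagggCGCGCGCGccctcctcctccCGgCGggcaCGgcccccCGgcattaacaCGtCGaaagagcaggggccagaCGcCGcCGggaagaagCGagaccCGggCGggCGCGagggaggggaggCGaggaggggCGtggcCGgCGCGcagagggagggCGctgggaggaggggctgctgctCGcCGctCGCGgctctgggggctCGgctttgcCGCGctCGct
CD34 promoter, GRCh38.p14 chr1:207911126-207911375, minus strand: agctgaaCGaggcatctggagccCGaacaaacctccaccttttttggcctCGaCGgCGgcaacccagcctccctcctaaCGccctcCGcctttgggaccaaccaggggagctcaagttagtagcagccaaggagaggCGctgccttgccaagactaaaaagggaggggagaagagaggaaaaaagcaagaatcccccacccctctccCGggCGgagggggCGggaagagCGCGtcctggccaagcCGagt
The KIT stretch holds 34 CG dinucleotides and the CD34 stretch 14, where the median of 35116 RefSeq promoters is 11. Neither holds GATAA, the core that GATA factors read (20.4% of promoters do), or TGTGGT, the core that RUNX factors read (11.0% do), searched on both strands.

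Peak strength is given by the deposited fold enrichment, which sets the ChIP pileup at the summit against a local background, and by the deposited −log10 q of the same summit. Which input libraries gave the background of each list is not stated in the sources used here. The background totals recovered from the lists were 78.0 (GATA2), 78.0 (RUNX1) and 72.6 (SMC3) M (1000000) reads in Q592* and 95.3, 86.7 and 86.7 M in WT, so they were not all equal within a line. To set the lines side by side, the whole number of ChIP reads over each summit was recovered from the deposited fold and −log10 p and divided by the number expected if all reads of the pool were spread evenly. This summit coverage is written as times the genome-wide level, with a 95% exact Poisson interval that covers counting error only. The pools held 106 (GATA2), 107 (RUNX1) and 93.4 (SMC3) M ChIP reads in Q592* and 108, 105 and 104 M in WT. Places are named by the distance of their strongest summit from the start of the window. Just outside the KIT window the nearest peaks lay 9.83 kb below and 17.4 kb above it, and outside the CD34 window 3.33 kb below and 5.53 kb above.

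GATA2 was called at 13 places in the KIT window in Q592* and at 6 in WT, which is 4.33 and 2.00 peaks per 100 kb, against 1.91 and 1.26 over the whole lists. All 6 WT peaks overlapped a Q592* peak. The other 7 of 13 regions were called in Q592* alone, where the background over all GATA2 regions of the genome is 40.1%. None was called in WT alone, against a background of 7.96%. Shared regions had a background of 51.9%.

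**Figure D1:**
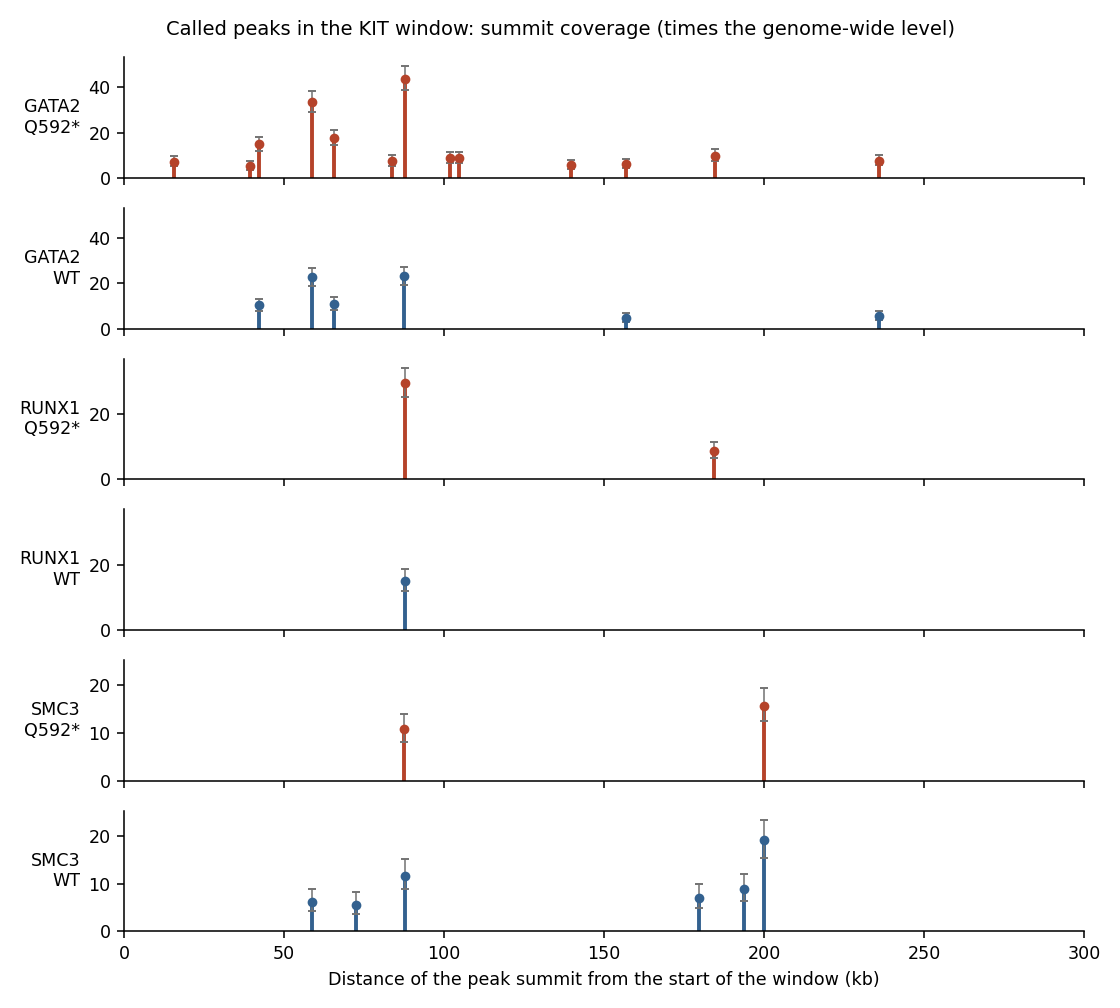
Summit coverage of every called peak in the KIT window, by distance of the summit from the window start (kb), with Q592* above WT for each target and 95% exact Poisson intervals. GATA2 has 13 peaks in Q592* and 6 in WT, RUNX1 2 and 1, and SMC3 2 and 6.

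The tallest GATA2 place of the KIT window lay 88 kb from its start, on chromosome 4 from 55436903 to 55437978, and was bound by all 3 targets in both lines. There 269 GATA2 reads covered the summit in Q592* and 138 in WT. Summit coverage was 43.7 times the genome-wide level (38.6 to 49.2) in Q592* and 23.1 times (19.4 to 27.3) in WT. The intervals did not overlap, and the ratio of Q592* to WT was 1.89. The peaks ranked in the strongest 5.98% of the Q592* list and the strongest 6.55% of the WT list.

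The next place lay 59 kb from the window start, from 55408590 to 55409141. GATA2 coverage there was 33.4 times (29.0 to 38.3) in Q592* and 22.6 times (18.9 to 26.7) in WT, again without overlap. The deposited fold had the opposite order, at 10.9 in Q592* and 15.7 in WT. The local background that enters the fold was 2.87 times the genome-wide background in Q592* and 1.27 times in WT. The −log10 q was nearly equal, at 99.9 and 98.4. By −log10 q this was the strongest GATA2 place of the window in WT, and the 88-kb place was the strongest in Q592*.

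At 65 kb, from 55415296 to 55415593, the background went the other way. The deposited GATA2 fold was 10.3 in Q592* and 3.45 in WT, as a ratio the widest gap in fold of any shared region of either window. Coverage was 17.5 times (14.4 to 21.2) in Q592* and 10.9 times (8.40 to 13.9) in WT, a ratio of 1.61. The local background was 1.499 times the genome-wide background in Q592* and 3.02 times in WT. A place at 42 kb, chosen after its values were seen, had folds of 5.66 and 7.87 and coverages of 14.8 and 10.2 times in Q592* and WT.

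Across the 6 shared GATA2 regions of the KIT window, coverage was higher in Q592* at all 6, with ratios from 1.28 to 1.89 and a median of 1.46. Over all 33241 shared GATA2 regions the median was 1.67, and 97.7% were higher in Q592*, so the direction at KIT is that of nearly the whole genome. A ratio of at least 1.5 was reached by 2 of the 6, where the background is 66.8%. Intervals were apart, with Q592* higher, at 3 of the 6, where the background is 54.0%. The order of the 6 places by coverage was the same in both lines (Spearman's rho 1.00 over 6 regions that share their libraries). Summits moved by 9 to 38 bp between the lines, with a median of 22 bp, against 20 bp over all shared GATA2 regions.

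The 7 GATA2 regions called in Q592* alone lay at 16, 39, 84, 102, 105, 140 and 184 kb. Their coverage ran from 5.36 to 9.90 times the genome-wide level, with a median of 7.46, and overlapped that of the 2 weakest shared places, at 6.00 times (157 kb) and 7.63 times (236 kb) in Q592*. Their −log10 q ran from 2.84 to 19.6. The strongest by this measure was the 105-kb place, with a fold of 6.71, and the weakest the 39-kb place, with a fold of 2.53. The weakest WT GATA2 peak called at the genome-wide background had 3.18 times its coverage, so a WT signal below about that level could not be seen. Where the local background is higher, a stronger WT signal could also go uncalled. The 39-kb Q592* peak had 5.36 times coverage at 1.98 times the genome-wide background, with a −log10 q of 2.84. With both GATA2 lists cut to the same length 3 of the 7 remained. With a −log10 q of at least 10, 3 of the 7 remained and the 157-kb place joined them, since its WT peak had 4.33.

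RUNX1 had 2 peaks in the KIT window in Q592* and 1 in WT. The shared one was at the 88-kb place, where RUNX1 coverage was 29.5 times (25.2 to 34.4) in Q592* and 15.2 times (12.1 to 18.9) in WT, from 167 and 82 reads. The ratio was 1.94, close to that of GATA2 at the same place, against a median of 1.53 over all shared RUNX1 regions. It sets 1 library of Q592* against 2 of WT. The RUNX1 summit lay 39 bp from the GATA2 summit in Q592* and 65 bp in WT, against genome-wide medians of 33 and 37 bp.

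The other RUNX1 peak, at 184 kb from 55534290 to 55534531, was called in Q592* alone, as was GATA2 there. RUNX1 regions of Q592* alone have a background of 44.4%. Coverage was 8.67 times (6.41 to 11.5) for RUNX1 and 9.90 times (7.57 to 12.7) for GATA2, and the summits were 48 bp apart. Neither peak was strong in its list: −log10 q was 6.66 and 8.92. Both peaks were absent with a −log10 q of at least 10 and with lists of equal length.

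SMC3 had the reverse count in the KIT window, with 2 peaks in Q592* and 6 in WT, or 0.667 and 2.00 per 100 kb, against 1.06 and 1.37 over the whole lists. Of the 6 regions 4 were called in WT alone, where the background over all SMC3 regions is 27.6%. The 2 shared regions compare with a background of 65.6%, and none was called in Q592* alone (background 6.84%).

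The tallest SMC3 peak of the window lay at 200 kb, from 55549750 to 55550191, free of GATA2 and RUNX1 peaks in both lines. Its coverage was 15.7 times (12.5 to 19.5) in Q592* and 19.0 times (15.4 to 23.4) in WT, with intervals that overlap, from 82 and 92 reads. The deposited fold was 7.19 in Q592* and 14.8 in WT, with a local background of 1.97 and 1.06 times the genome-wide background. The gap in fold was thus larger than the gap in coverage. At the 88-kb place SMC3 coverage was 10.7 times (8.09 to 13.9) in Q592* and 11.6 times (8.76 to 15.1) in WT, and the SMC3 summit lay 89 and 56 bp from that of GATA2.

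The 4 SMC3 regions called in WT alone lay at 59, 72, 179 and 194 kb, with coverages of 6.21, 5.59, 7.04 and 8.90 times. The strongest, at 194 kb from 55543627 to 55543859, had a fold of 7.34 and a −log10 q of 19.4. The 59-kb region sat on the GATA2 place already described, with its summit 4 bp from the WT GATA2 summit. So at that place GATA2 was called in both lines and SMC3 in WT. These are low peaks: the lowest Q592* SMC3 peak called at the genome-wide background had 3.83 times its coverage, and the 4 had −log10 q from 5.38 to 19.4. Where the local background is higher, a stronger Q592* signal could go uncalled. With a −log10 q of at least 10, 1 of the WT-only regions was left, and with equal list lengths 2.

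In the CD34 window GATA2 was more densely called than around KIT, with 11 peaks in Q592* and 8 in WT, or 9.17 and 6.67 per 100 kb. The lists gave 12 regions, of which 7 were shared, 4 were called in Q592* alone and 1 in WT alone. As shares these are 58.3, 33.3 and 8.33%, near the backgrounds of 51.9, 40.1 and 7.96%.

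**Figure D2:**
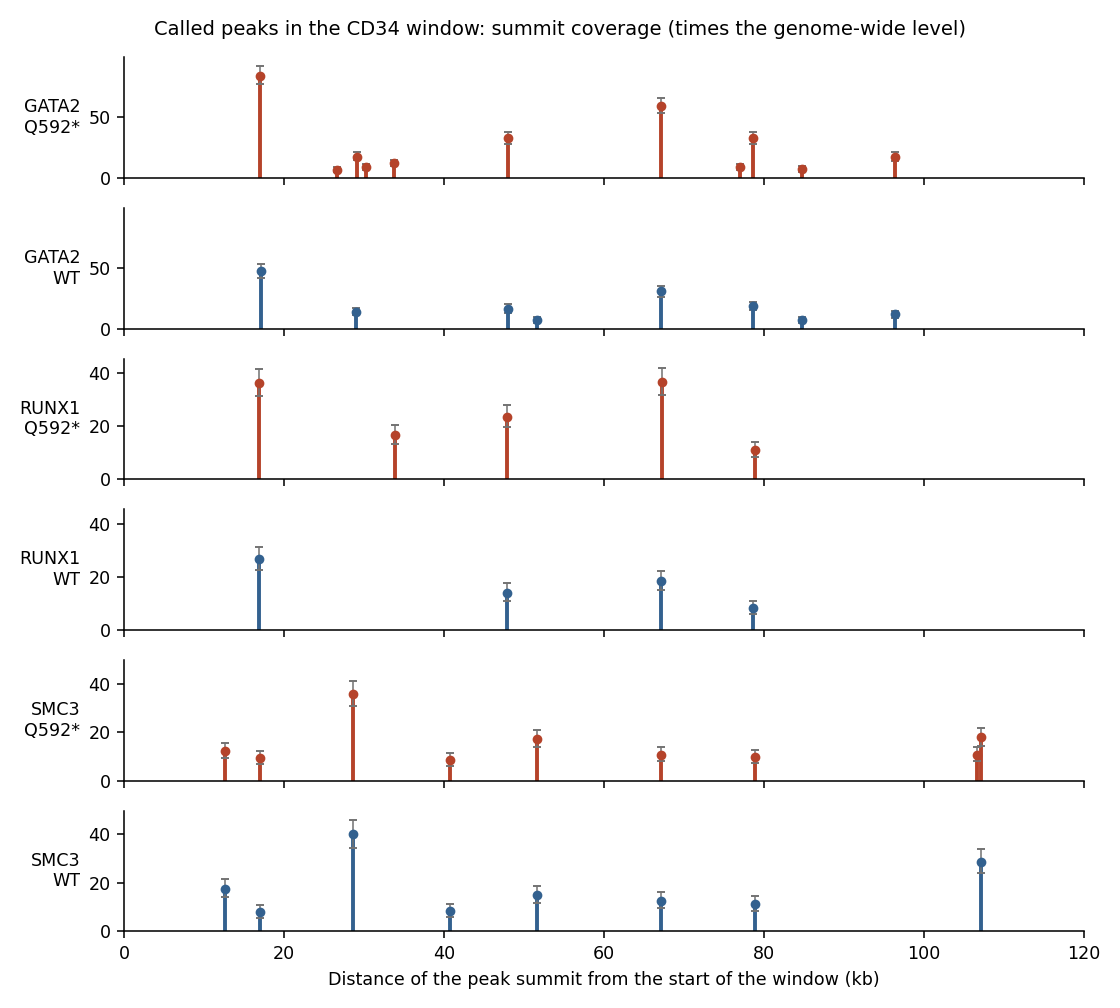
Summit coverage of every called peak in the CD34 window, by distance of the summit from the window start (kb), with Q592* above WT for each target and 95% exact Poisson intervals. The 17-kb GATA2 peak is the tallest of the window, at 84.7 times the genome-wide level in Q592* and 47.4 times in WT.

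The strongest place of either window was at 17 kb, on chromosome 1 from 208046599 to 208047353, bound by all 3 targets in both lines. GATA2 had 522 reads over the summit in Q592* and 283 in WT. Coverage was 84.7 times (77.6 to 92.3) in Q592* and 47.4 times (42.0 to 53.2) in WT, a ratio of 1.79 with intervals far apart. The fold was 29.4 in Q592* and 20.3 in WT, and the −log10 q 413 and 229. The peaks ranked in the strongest 0.466% of the Q592* list and the strongest 0.631% of the WT list.

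RUNX1 at the 17-kb place had 206 reads in Q592* and 144 in WT. Coverage was 36.4 times (31.6 to 41.8) in Q592* and 26.7 times (22.5 to 31.4) in WT, with the intervals just apart and a ratio of 1.37. The RUNX1 summit lay 176 bp from the GATA2 summit in Q592* and 201 bp in WT, on the side of lower coordinates both times. The upper quartile of that distance over the genome is 65 bp in Q592* and 72 bp in WT. SMC3 was weak there, at 9.18 times (6.77 to 12.2) in Q592* and 7.87 times (5.57 to 10.8) in WT, from 48 and 38 reads.

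The second GATA2 place of the CD34 window, at 67 kb from 208096866 to 208097463, was also bound by all 3 targets in both lines. GATA2 coverage was 59.9 times (53.9 to 66.3) in Q592* and 30.8 times (26.5 to 35.6) in WT, a ratio of 1.94. RUNX1 coverage was 36.8 times (32.0 to 42.1) in Q592* and 18.4 times (14.9 to 22.3) in WT, a ratio of 2.00. SMC3 coverage was 10.5 times (7.93 to 13.7) in Q592* and 12.6 times (9.66 to 16.2) in WT. The GATA2 and RUNX1 intervals were apart here with Q592* higher, as at 54.0% and 42.1% of their shared regions genome-wide. The SMC3 intervals overlapped. Genome-wide they are apart at few shared SMC3 regions, 5.08% with WT higher and 0.179% with Q592* higher. The RUNX1 comparison sets 1 library of Q592* against 2 of WT.

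At 79 kb, from 208108450 to 208108952, all 3 targets were again called in both lines. GATA2 coverage was 32.8 times (28.4 to 37.6) in Q592* and 18.4 times (15.1 to 22.2) in WT. RUNX1 coverage was 11.0 times (8.41 to 14.1) in Q592* and 8.16 times (5.93 to 10.9) in WT, with overlapping intervals. SMC3 coverage was 9.76 times (7.27 to 12.8) in Q592* and 11.2 times (8.40 to 14.6) in WT, overlapping as well. The SMC3 summit stood 178 bp from that of GATA2 in Q592* and 177 bp in WT, whereas the RUNX1 summit shifted by 172 bp between the lines.

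At 48 kb, from 208077636 to 208078378, GATA2 and RUNX1 were called in both lines with no SMC3. RUNX1 coverage was 23.7 times (19.9 to 28.1) in Q592* and 14.1 times (11.1 to 17.6) in WT. GATA2 coverage was 32.8 times (28.4 to 37.6) in Q592* and 16.4 times (13.3 to 19.99) in WT, and its ratio of 2.00 was the highest of the 13 shared GATA2 regions. Their summits were 208 bp apart in Q592* and 213 bp apart in WT, the RUNX1 summit at the lower coordinate. The wide spacing of 17 and 48 kb was noted after the values were seen.

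Over the 7 shared GATA2 regions of the CD34 window the ratio of Q592* to WT ran from 1.04 to 2.00 with a median of 1.78, against 1.67 genome-wide. All 7 were higher in Q592* (97.7% genome-wide), the intervals were apart at 4 (background 54.0%), and 4 reached a ratio of 1.5 (background 66.8%). The lowest ratio was at 85 kb, where 44 reads in Q592* and 41 in WT covered the summit. For RUNX1, 4 of 4 shared regions were higher in Q592* (96.5% genome-wide), by ratios of 1.34 to 2.00 with a median of 1.52, against 1.53 genome-wide, and 2 reached 1.5 (background 53.5%). The RUNX1 intervals were apart at 3 of the 4 (background 42.1%). In direction and median ratio both factors therefore followed the genome-wide difference between the lists.

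**Figure D3:**
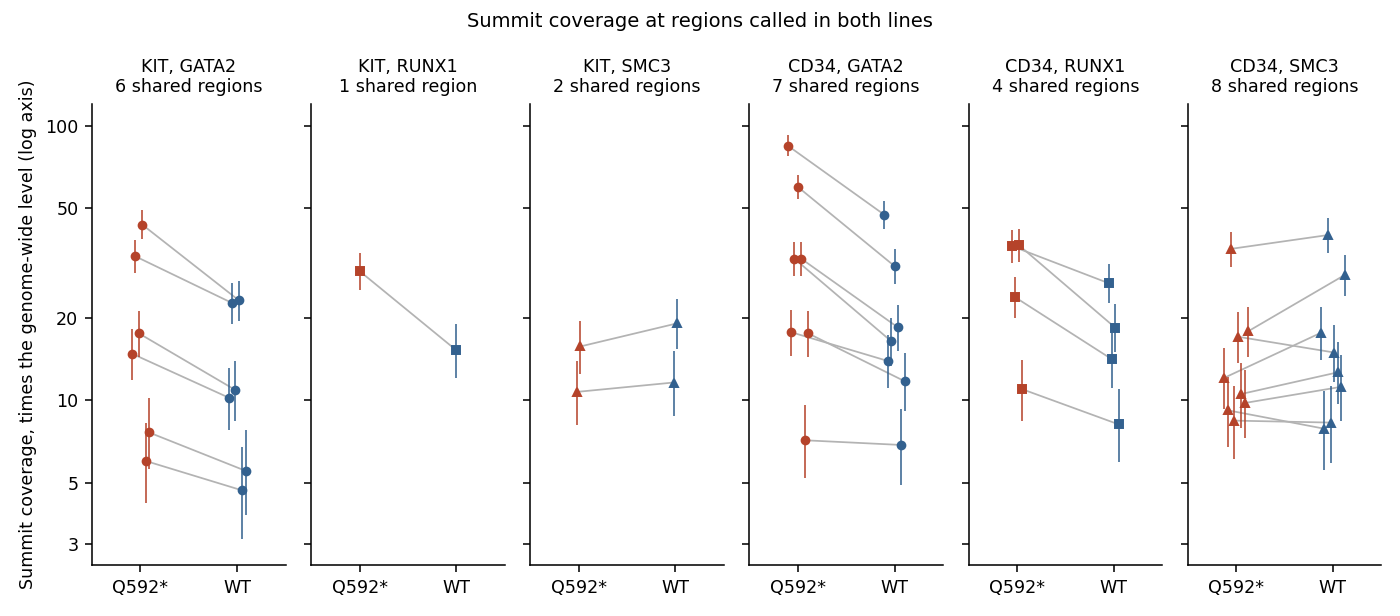
Summit coverage (log axis) at each region called in both lines, Q592* left and WT right, joined by a line, with 95% exact Poisson intervals and 1 panel per window and target. All GATA2 and RUNX1 lines slope down to WT, and the SMC3 lines run both ways.

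The 4 GATA2 regions of the CD34 window called in Q592* alone lay at 27, 30, 34 and 77 kb, with coverages of 6.82, 8.76, 12.2 and 8.76 times. The 34-kb place, from 208063636 to 208064120, was also called for RUNX1 in Q592* alone. RUNX1 coverage there was 16.6 times (13.4 to 20.3) with a −log10 q of 17.1, from 94 reads, the highest coverage in the windows without a partner in the other line. The local background was high, at 4.12 times the genome-wide background for RUNX1 and 3.97 times for GATA2. The folds were 3.87 for RUNX1 and 2.96 for GATA2. This place was chosen after its values were seen. Its RUNX1 peak remained with a −log10 q of at least 10 and with equal list lengths. Its GATA2 peak, with a −log10 q of 9.65, was lost under both settings. Of the 4 GATA2 regions 1 remained under either setting, the one at 77 kb. With 1 library for Q592* RUNX1 and 2 for WT, the library and the line cannot be told apart.

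In all, 5 RUNX1 regions lay in the CD34 window, 4 shared (80%, background 46%) and 1 in Q592* alone (20%, background 44.4%), and none in WT alone (background 9.59%). Each of the 7 RUNX1 peaks of Q592* and 5 of WT in the windows overlapped a GATA2 peak of the same line. Genome-wide 74.9% of RUNX1 peaks in Q592* and 75.02% in WT do so.

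SMC3 differed from the KIT window. It had 9 peaks in the CD34 window in Q592* and 8 in WT, or 7.5 and 6.67 per 100 kb. Of the 9 regions 8 were shared (88.9%, background 65.6%) and none was called in WT alone (background 27.6%). The difference from KIT, where 4 of 6 were called in WT alone, rests on 15 regions and was not tested.

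**Figure D4:**
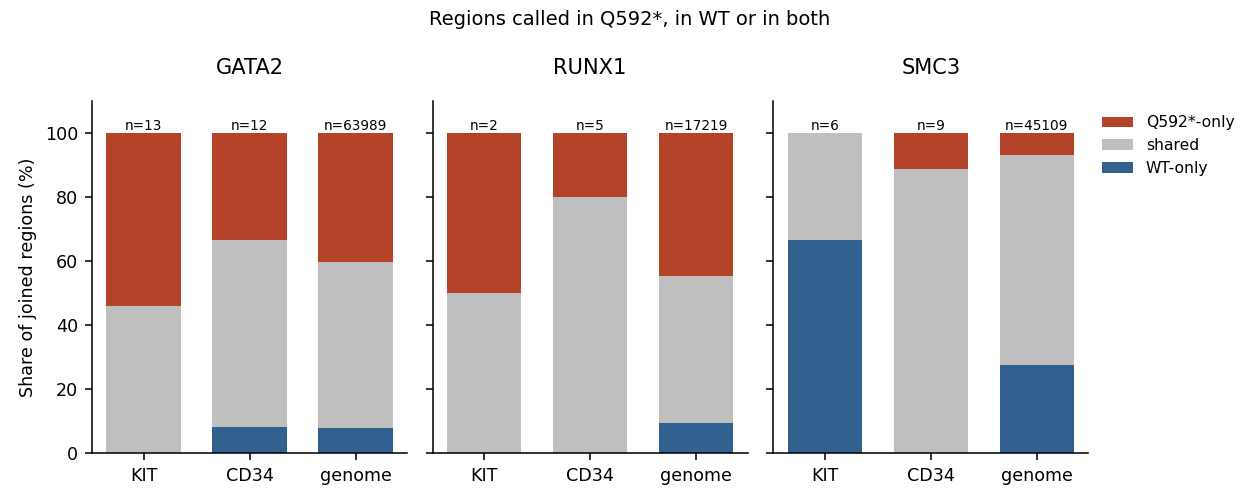
Share of joined regions (%) called in Q592* alone, in both lines or in WT alone, for the KIT window, the CD34 window and the genome, with the number of regions above each bar. WT-only SMC3 regions are 66.7% of 6 at KIT, 0% of 9 at CD34 and 27.6% of 45109 genome-wide.

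The tallest SMC3 peak of both windows lay at 29 kb of the CD34 window, from 208058435 to 208059230. Its coverage was 35.6 times (30.7 to 41.1) in Q592* and 39.96 times (34.5 to 46.0) in WT, from 186 and 193 reads, with overlapping intervals. GATA2 overlapped it in both lines, but with its summit 522 bp away in Q592* and 410 bp away in WT. The median distance genome-wide is 61 and 58 bp. The overlap here joins 2 peaks with separate summits.

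At 52 kb, from 208081395 to 208081819, SMC3 coverage was 17.0 times (13.7 to 21.0) in Q592* and 14.9 times (11.7 to 18.8) in WT. The GATA2 region of WT alone lay on it, with 7.03 times (5.07 to 9.50) from 42 reads, 28 bp from the SMC3 summit. It is the sole place in the windows where GATA2 was called in WT and not in Q592*. Its −log10 q was 7.18, and with a −log10 q of at least 10 this call was lost, while the 85-kb place became the one in WT alone, since its −log10 q was 9.34 in Q592* and 14.6 in WT.

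At 107 kb 2 SMC3 peaks stood side by side in Q592*. The one from 208136700 to 208137183 was shared, with 17.8 times (14.4 to 21.8) in Q592* and 28.6 times (24.0 to 33.8) in WT, the one shared SMC3 region whose intervals were apart. Its deposited folds were close, at 3.18 in Q592* and 3.43 in WT. The local background was 5.42 times the genome-wide background in Q592* and 8.15 times in WT. This region was chosen after its values were seen. Intervals apart in this direction occur at 5.08% of shared SMC3 regions genome-wide, and its ratio of 0.623 is in the range at least 1.5 times lower, which has a background of 5.4%. The weaker neighbour, from 208136437 to 208136609, was called in Q592* alone with a fold of 2.17, and was lost with a −log10 q of at least 10.

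For the 10 shared SMC3 regions taken by window, the median ratio of Q592* to WT was 0.874 at KIT (2 regions) and 0.882 at CD34 (8 regions, from 0.623 to 1.17), against 0.904 over 29578 shared regions. Coverage was lower in Q592* at 2 of 2 and at 5 of 8, and at 21085 of 29578 genome-wide. This direction depends on the scale. Reads per M ChIP reads rest on an assumed fragment of 151 bp in Q592* and 126 bp in WT. On that scale the median log2 ratio was 0.064 at KIT and 0.080 at CD34, against 0.116 genome-wide. Higher in Q592* were 1 of 2 and 5 of 8 regions, and 20011 of 29578 genome-wide.

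The ratio of the deposited folds, which also carries each list's local background, gave a different picture at single regions. Its median log2 value was 0.21 (GATA2), 0.51 (RUNX1) and -0.39 (SMC3) in the KIT window and 0.31, 0.46 and -0.18 in the CD34 window, against 0.48, 0.33 and -0.10 genome-wide. The fold was higher in Q592* at 4 of 6 GATA2 regions of KIT and 6 of 7 of CD34, while coverage was higher at all 13. Genome-wide the fold was higher at 26799 of 33241 shared GATA2 regions, and coverage at 97.7% of them. Relative to the genome-wide median the GATA2 value was -0.27 at KIT and -0.17 at CD34, so its sign turns with the centring.

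**Figure D5:**
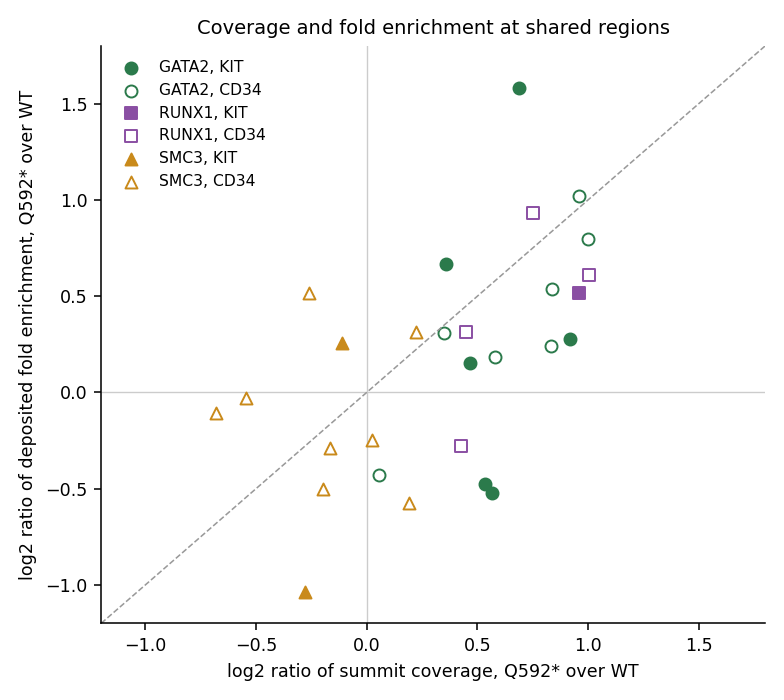
log2 ratio of the deposited fold enrichment against the log2 ratio of summit coverage, Q592* over WT, at the 28 shared regions of the windows (filled KIT, open CD34), with a dashed line of equality. GATA2 points all lie right of 0 in coverage, and 3 of them lie below 0 in fold.

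Taken place by place over the targets, the KIT window held 17 places and the CD34 window 16. All 6 lists had a peak at 1 KIT place and 3 CD34 places, and 9 and 4 places were in 1 list alone. In Q592*, 1 of 14 KIT places and 3 of 16 CD34 places carried all 3 targets, against 3.83% of places genome-wide. In WT it was 1 of 10 and 3 of 11, against 5.78%. These are the same 4 places in both lines. Some of them rest on weak SMC3 peaks. At the 17-kb CD34 place the SMC3 −log10 q was 6.95 in Q592* and 3.43 in WT. At the 67-kb CD34 place it was 10.3 in Q592* and 6.82 in WT. Counts of places were not repeated with a −log10 q of at least 10. SMC3 overlapped 1 of 13 GATA2 peaks in Q592* and 2 of 6 in WT at KIT, and 4 of 11 and 5 of 8 at CD34, where the whole lists have 11.7% and 26.3%.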

How the data were processed

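Members and lists were chosen with earlier results of these data known. Bowtie2, Picard, MACS2 and hg19 were used, per the submitters' processing notes. Versions: not given in the sources used here. All 6 deposited peak lists carry the word merge and were taken as pooled calls, though RUNX1 in Q592* has 1 library. The deposited fold enrichment is the ratio of summit pileup to local background, with 1 added to each. The deposited −log10 p-value and its genome-wide adjusted form, the −log10 q-value, refer to the summit, and the deposited score, 10 times the −log10 q, was not used. All are the authors' own values.

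Whole ChIP reads and local background were solved from fold and −log10 p and fitted 100% of peaks of each list to within 0.002, against at most 1.70% with the worth of a read wrong by 3%. Pool and background totals in M (1000000) reads assume an effective genome of 2700000000 bp and a fragment as long as the narrowest peak; summit coverage needs neither. The summit is where a peak is highest, so its coverage is biased upwards. Peaks of both lines overlapping by at least 1 bp were joined per target. Recovery and joining were tested on simulated data. The design planned ratios of folds; recovered coverage is printed beside them, because fold depends on each list's background. Regions with full values were, by rule, the 3 with the highest −log10 q per window and target and every place with all 3 targets; other targets at those places are given beside them, and further regions are marked as chosen after their values were seen. Sequence at the peaks was not analysed here. Tools were scipy 1.17.1, numpy 2.4.6, matplotlib 3.10.9 and pandas 2.3.3 on Python 3.11.15.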

Additional observations from a re-analysis of the deposited data

How the results depend on the processing

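No paired analysis was possible because each list stands for its whole group and has no column per replicate. For the same reason no library could be left out. The group of RUNX1 in Q592* has 1 library, yet its list carries the word merge. What was merged is not stated in the sources used here. Of 36 alternative peak counts 31 stayed within 1.5 times the reported value, and of 72 region counts 60, including all with summits within 200 bp. With a −log10 q of at least 10, peak counts were 1 (KIT RUNX1, Q592*), 3 (KIT SMC3, WT) and 7 (CD34 GATA2, Q592*); Q592*-only regions were 4 (KIT GATA2), 1 (CD34 GATA2) and 0 (KIT RUNX1), and WT-only KIT SMC3 regions 1. The WT-only GATA2 and the Q592*-only SMC3 region of CD34 were lost there and 1 other of each took its place. With equal list lengths, peak counts in Q592* were 1 (KIT RUNX1) and 7 (CD34 GATA2); Q592*-only regions were 3 (KIT GATA2), 1 (CD34 GATA2), 0 (KIT RUNX1) and 3 (CD34 SMC3), and WT-only regions 2 (CD34 GATA2) and 2 (KIT SMC3). A reciprocal overlap of 50% gave 2 Q592*-only and 1 WT-only CD34 SMC3 regions.

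Median log2 ratios moved with the scale. Per M ChIP reads they were 0.61 (KIT GATA2), 1.00 (KIT RUNX1) and 0.90 (CD34 GATA2), and turned sign for SMC3, at 0.064 (KIT) and 0.080 (CD34). Centred on all shared regions they turned sign for GATA2, at -0.27 (KIT) and -0.17 (CD34), and were 0.19 and 0.13 for RUNX1 and -0.29 and -0.077 for SMC3. Summit coverage, a scale chosen after seeing the data, gave 0.55 (KIT GATA2), 0.96 (KIT RUNX1) and 0.83 (CD34 GATA2). The scales differ by their construction in the local background or assumed fragment length. Peaks below the lists' thresholds limit all counts.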
